A study of Mus musculus with 35 samples.

Results

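Nodal pathway genes were followed through GATA6-driven differentiation of ES cells into primitive endoderm (PrE). The 9 genes were taken by symbol: the ligands Nodal and Gdf3, the co-receptor gene Tdgf1, the antagonists Lefty1 and Lefty2, the nuclear effector Foxh1, the intracellular inhibitor Smad7, and the proprotein convertases Furin and Pcsk6. All 9 were found among the 44853 genes of the induction table and among the 6275 genes of the siRNA table, and all 9 passed the filter on low values in both (15057 and 6264 genes tested, those whose mean reached 1 TPM in any group). The siRNA table held only genes that the authors had called responsive to GATA6 in the induction libraries, so the presence of the 9 genes there is not independent of the time course.

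Nodal is a secreted TGF-beta family ligand that signals through activin receptors together with an EGF-CFC co-receptor, here Cripto, the product of Tdgf1. The receptors phosphorylate SMAD2 and SMAD3, which enter the nucleus with SMAD4 and act on target genes with partners such as FOXH1. In the early mouse embryo the pathway maintains its own ligand and also induces its antagonists, the Lefty proteins, while convertases of the Furin and Pcsk6 type cleave the Nodal precursor.

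PolyA RNA was sequenced in 35 libraries. ES cells of the KH2 line (C57BL/6 x 129/Sv) carrying a doxycycline (Dox) inducible GATA6 cassette were sequenced before Dox (0 h) and after 16, 24, 48, 72, 96 and 168 h at 1 µg/mL, with 3 libraries per group. XEN cells, an extra-embryonic endoderm line related to the PrE (line X10, CD1, wild type, untreated), gave 2 libraries. The inducible cells at 48 h of Dox gave 6 control libraries (siCTL, a non-targeting siRNA) and 6 libraries with Oct4 siRNA (siOct4), Oct4 being the pluripotency factor encoded by Pou5f1. The cassette was thus carried by every ES-derived group, including the 0 h and siCTL controls, and all ES-derived cells grew in serum with LIF on mitomycin C-treated embryonic fibroblast feeders. XEN cells grew without LIF. They differed from the 0 h cells in strain, transgene, medium and cell type at once, and these cannot be told apart. The methods name 1 clone for the siRNA experiments, so the clone is common to both siRNA groups, and do not name the clone of the induction libraries.

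The labels held in the induction libraries. Gata6 rose from between 0.193 and 0.375 TPM at 0 h to between 129 and 138 TPM at 16 h and between 317 and 369.6 TPM at 168 h, a count that joins the transgene and the endogenous gene. The summed level of 8 ES cell markers ranged from 9059 to 9391 TPM at 0 h and from 1799 to 2591 TPM at 168 h, and was 17.4 and 21.1 TPM in XEN cells, where Esrrb was listed at 0. The sum hides unequal falls. By 168 h the mean of Pou5f1 had gone from 1654 to 63.4 TPM, that of Nanog from 281 to 1.73 TPM and that of Sox2 from 323 to 3.18 TPM. The rest of the 168 h sum came from the other markers of the list, whose levels are not given singly. The summed level of 8 PrE markers rose from at most 43.1 TPM at 0 h to at least 5983 TPM at 168 h. All 9 feeder fibroblast markers had a mean of at least 1 TPM at 168 h, with a sum of 127 to 282 TPM against 36.3 to 112 TPM at 0 h, while Dcn, Lum and Twist2 stayed under 1 TPM at 0 h. The part of residual feeders in the results was not tested. In bulk RNA, fewer cells expressing a gene and less of its RNA per cell cannot be told apart.

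Nodal and Gdf3, the ligands, were called lower from 24 and 48 h of Dox and were under 1 TPM in every library by 168 h. Nodal was measured at 39.3, 39.5 and 30.5 TPM in the 0 h libraries, at 21.0, 21.6 and 14.0 TPM at 16 h, at 7.50, 6.48 and 9.59 TPM at 48 h and at 0.58, 0.619 and 0.781 TPM at 168 h. These 4 groups did not overlap. Of the 0 h mean, 51.8% was left after 16 h and 47.5% after 24 h of Dox. By 48 h the share was 21.6%, and 7.24% and 1.81% were left at 72 and 168 h. On the log2(TPM + 1) scale used for all tests, Nodal fell by 1.02 ± 0.17 (SE) at 24 h (limma, adjusted p = 1.76e-04, n = 3 per group) and by 4.49 ± 0.17 at 168 h (adjusted p = 2.40e-14). The 24 h call sits at the minimum: it read -0.97 or -0.96 without the first or the second 0 h library and -0.98 without the second 24 h library. The 16 h difference of -0.93 had an adjusted p of 0.00101 but did not reach the minimum of 1 on the log2 scale that a call required. Both XEN libraries listed Nodal at 0.

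Gdf3, a ligand of the same family that also needs Cripto, fell more evenly. It was at 64.0, 62.6 and 65.1 TPM at 0 h, 47.6, 48.1 and 43.3 TPM at 16 h, 14.3, 14.5 and 13.5 TPM at 48 h and 0.509, 0.467 and 0.679 TPM at 168 h, with no overlap between these groups. The first call was at 48 h, a fall of 2.10 ± 0.10 (adjusted p = 4.06e-12), and the fall reached 5.39 ± 0.10 at 168 h (adjusted p = 1.44e-18), where the mean was 0.864% of that at 0 h. Gdf3 too was listed at 0 in both XEN libraries.

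Tdgf1 was the most abundant of the 9 genes in ES cells and fell furthest. The 0 h libraries held 494, 517 and 419.8 TPM, the 16 h libraries 253, 259 and 226 TPM, the 24 h libraries 123, 119.9 and 201 TPM and the 48 h libraries 39.8, 29.3 and 56.0 TPM. Each of these groups lay wholly below the one before it. The fall was called from 24 h (1.72 ± 0.31, adjusted p = 3.33e-04) and was 7.43 ± 0.31 at 168 h (adjusted p = 7.29e-14), where 1.18, 1.37 and 3.10 TPM remained. XEN cells listed Tdgf1 at 0 in both libraries. Processed pseudogenes of Tdgf1 are annotated, and reads shared with them could have been split by the quantification, so the Tdgf1 level is uncertain to that extent.

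The sequences before the starts of Nodal and Tdgf1 are shown because these genes were the first of the 9 to be called lower. They are the 250 bases upstream of the RefSeq start on GRCm38.p6, read 5′ to 3′ on the gene's strand, chr10:61417722-61417971 (plus strand) for Nodal and chr9:110946159-110946408 (minus strand) for Tdgf1. Of the 9 genes, 4 had an entry in the RefSeq promoter table used. Capitals mark matches, on either strand, to TGATAA and its relative AGATAA, both of the GATA type, to AATNNACA, a form known for FOXH1, or to CAGAC, a form known for SMADs. None of the marked matches overlap each other.
Nodal: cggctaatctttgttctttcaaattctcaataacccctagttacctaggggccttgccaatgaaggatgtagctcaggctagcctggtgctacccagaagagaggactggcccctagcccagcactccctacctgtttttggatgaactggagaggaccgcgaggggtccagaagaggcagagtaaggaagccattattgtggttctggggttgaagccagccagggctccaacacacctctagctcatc
Tdgf1: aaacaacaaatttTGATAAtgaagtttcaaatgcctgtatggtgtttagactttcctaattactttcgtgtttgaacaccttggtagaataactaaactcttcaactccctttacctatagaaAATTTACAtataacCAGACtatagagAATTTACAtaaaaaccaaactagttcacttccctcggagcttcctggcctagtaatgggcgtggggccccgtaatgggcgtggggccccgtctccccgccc
The Nodal window held none of these letters. The Tdgf1 window held TGATAA 237 bases before the start, CAGAC 113 bases before it and AATNNACA 127 and 101 bases before it, in each case counted to the first base of the match. Over the 32851 promoter windows of this length, 7.94% held TGATAA, 9.99% AGATAA, 10.9% AATNNACA and 42.2% CAGAC. The match is a description of letters, and binding was not measured in these libraries.

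**Figure D1:**
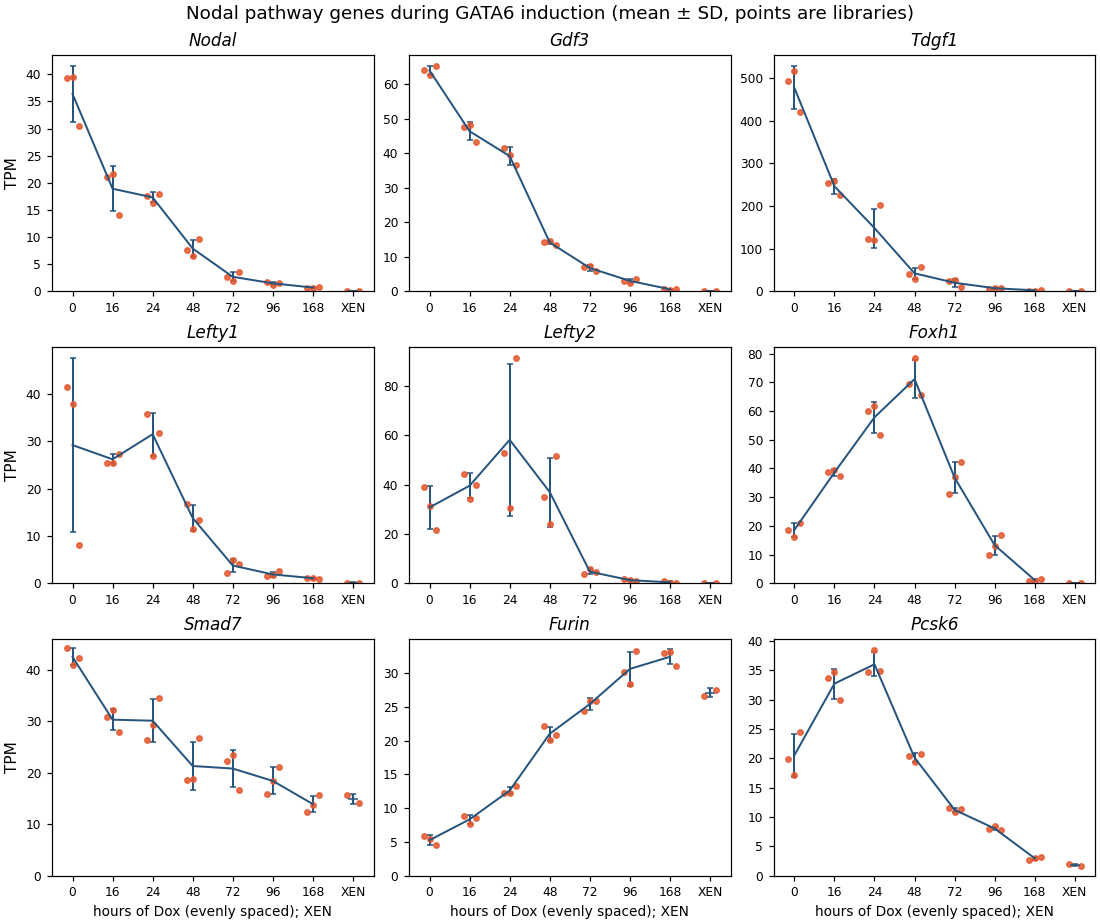
Level of each Nodal pathway gene in TPM (vertical axis, from 0, a scale per panel) in ES cells at 0 h, at 6 times of Dox and in XEN cells (horizontal axis, times evenly spaced). Points are libraries, lines join the means and bars are SD. Nodal, Gdf3 and Tdgf1 descend from 0 h on, Foxh1 peaks at 48 h with a mean of 71.1 TPM, Pcsk6 peaks at 24 h with 36.0 TPM, and Furin climbs to 32.4 TPM at 168 h.

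Lefty1 and Lefty2, the antagonists, were first called lower at 72 h. Lefty1 was at 41.5, 37.9 and 8.15 TPM at 0 h, 25.5, 25.5 and 27.4 TPM at 16 h, 35.8, 26.8 and 31.8 TPM at 24 h and 16.8, 11.5 and 13.3 TPM at 48 h. The third 0 h library was below every library of the next 3 groups, while the other two 0 h libraries were above all of them. The fall was first called at 72 h (2.20, 4.94 and 4.18 TPM), at 2.42 on the log2 scale, and it reached 3.56 ± 0.38 at 168 h (adjusted p = 7.11e-08), where 1.23, 1.08 and 0.973 TPM were left. Without the third 0 h library, the 48 h difference of -0.75 became -1.47 and passed (adjusted p = 1.55e-05), and the small positive values at 16 and 24 h (0.13 and 0.38) became -0.58 and -0.33.

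Lefty2, the second antagonist, was at 39.2, 31.3 and 21.8 TPM at 0 h and at 52.9, 30.5 and 91.2 TPM at 24 h, groups that overlapped (difference 0.80 ± 0.32, adjusted p = 0.0659). Without the second 24 h library the difference was 1.19 (adjusted p = 0.00747). At 48 h the libraries held 35.1, 24.0 and 51.7 TPM, still within reach of the 0 h values. By 72 h they held 3.69, 5.80 and 4.72 TPM, a fall of 2.68 ± 0.32 from 48 h (adjusted p = 8.53e-06). Among the steps of the 9 genes only the last one of Foxh1 was larger, over the longer interval from 96 to 168 h. At 168 h, 0.814, 0.162 and 0.284 TPM remained, a fall of 4.47 ± 0.32 from 0 h (adjusted p = 1.65e-10). In XEN cells Lefty1 was at 0.0202 and 0.172 TPM and Lefty2 at 0.0607 and 0.0303 TPM.

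Nodal was first called lower at 24 h and the antagonists at 72 h, or at 48 h for Lefty1 without the third 0 h library, and this order was not tested. The sum of Lefty1 and Lefty2 per TPM of Nodal was 1.60 ± 0.553 (SD, n = 3) at 0 h and 3.64 ± 1.05 after 16 h of Dox, and went on to 5.13 ± 1.66 by 24 h and 6.39 ± 0.798 by 48 h. It then came back to 3.55 ± 1.95 at 72 h and 2.38 ± 1.01 at 168 h, where each of the 3 genes was under 2 TPM. The 48 h libraries, at 6.92, 5.48 and 6.78, lay above all 0 h libraries, at 2.05, 1.75 and 0.982. Lefty1 made up 28.4% ± 6.90 of the Lefty sum at 48 h and 74.8% ± 13.5 at 168 h. The ratio was chosen after the values had been seen and was not tested along the course.

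The Lefty genes are neighbours on chromosome 1 (mm10), Lefty2 at chr1:180893108-180899103 and Lefty1 at chr1:180935022-180938400, both on the plus strand, with 35918 bp and 1 protein-coding gene between them. Their transcripts share 17.9% of the 50-base windows of Lefty1 and 11.6% of those of Lefty2, but no window of 150 bases, the read length stated in the methods. Reads shared between them could still have been assigned to either gene. Of the other members, Nodal lies at chr10:61417972-61425338 (plus strand), Gdf3 at chr6:122605403-122610087 (minus), Tdgf1 at chr9:110939603-110946158 (minus), Foxh1 at chr15:76668225-76669948 (minus), Furin at chr7:80388585-80405436 (minus) and Pcsk6 at chr7:65861734-66050386 (plus). Furin and Pcsk6 overlap predicted genes on the opposite strand (Gm44851 and Gm20684), and Pcsk6 also overlaps Gm45213 on its own strand. The values are sums over whole genes, exons and untranslated parts included.

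Foxh1, the DNA-binding partner of SMAD2 and SMAD3, moved against the ligands until 48 h. Its libraries held 18.7, 16.1 and 21.0 TPM at 0 h, 38.8, 39.5 and 37.4 TPM at 16 h, 60.1, 61.7 and 51.5 TPM at 24 h and 69.4, 78.3 and 65.6 TPM at 48 h. None of these groups overlapped. The rise was 1.02 ± 0.16 at 16 h (adjusted p = 1.22e-04), 1.59 at 24 h and 1.88 ± 0.16 at 48 h (adjusted p = 6.65e-09), where the mean stood at 382% of that at 0 h. The 16 h call sits at the minimum of 1: it read 0.99 after median-of-ratios rescaling and 0.93 without the second 0 h library. Foxh1 then returned to 31.1, 37.1 and 42.1 TPM at 72 h and 10, 13.1 and 16.7 TPM at 96 h, and ended at 0.875, 0.954 and 1.61 TPM at 168 h, 3.20 ± 0.16 below 0 h (adjusted p = 6.67e-13). Its step of -2.72 from 96 to 168 h (adjusted p = 4.06e-10) was the largest among the 9 genes. XEN cells listed 0 and 0.0506 TPM.

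Smad7, an inhibitory SMAD that blocks the receptors and is itself a target of the pathway, had the smallest difference of the 9 genes at 168 h and in XEN cells, but not at the earlier times. It was at 44.3, 41.0 and 42.3 TPM at 0 h, 30.8, 32.1 and 28.0 TPM at 16 h, 18.5, 18.8 and 26.8 TPM at 48 h and 12.4, 13.8 and 15.6 TPM at 168 h. The 168 h level was 32.8% of that at 0 h, a fall of 1.55 ± 0.15 (adjusted p = 1.18e-08), and was not distinguishable from that of XEN cells, at 15.7 and 14.2 TPM (difference 0.10 ± 0.16, adjusted p = 0.668). The 72 h difference of -1.01 was called, but it fell short of 1 without the first 0 h library (-0.98) or without the third 72 h library (-0.87). At 48 h the difference of -0.98 missed the minimum and passed it at -1.01 after rescaling.

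The convertases, which cleave precursor proteins of the TGF-beta family among others, were both above 0 h at 16 and 24 h and parted from 48 h on. Furin rose from 5.83, 5.45 and 4.47 TPM at 0 h to 12.3, 12.3 and 13.3 TPM at 24 h, 22.1, 20.1 and 20.8 TPM at 48 h and 32.9, 33.1 and 31.1 TPM at 168 h. Its mean was higher at each time than at the one before, but 96 and 168 h could not be separated (adjusted p = 0.471). The rise was called from 24 h (1.13 ± 0.08, adjusted p = 8.02e-09) and reached 2.42 ± 0.08 at 168 h (adjusted p = 5.43e-15), a mean of 616% of the 0 h level. XEN cells held 26.6 and 27.5 TPM, below all 168 h libraries, by a difference of 0.25 on the log2 scale (adjusted p = 0.0358) that was under the minimum.

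Pcsk6 first went up and then down. From 19.8, 17.2 and 24.5 TPM at 0 h it went to 33.6, 34.7 and 29.9 TPM at 16 h and 34.7, 38.4 and 34.9 TPM at 24 h. The difference of 0.79 ± 0.10 at 24 h had an adjusted p of 7.30e-06, with no overlap, but was under the minimum of 1. At 48 h it was back at 20.3, 19.3 and 20.7 TPM, within the 0 h range. It was called lower from 96 h and stood at 2.65, 2.96 and 3.23 TPM at 168 h, 2.43 ± 0.10 below 0 h (adjusted p = 6.31e-14), against 1.91 and 1.68 TPM in XEN cells.

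From 24 h on, the sum of the convertases changed far less than their shares, while up to 24 h the sum rose and the shares changed little. Furin and Pcsk6 together gave 25.8 ± 3.13 TPM at 0 h, reached 48.6 ± 1.84 TPM by 24 h and ended with 35.3 ± 0.913 TPM. Pcsk6 made up 79.3% ± 4.62 of that sum at 0 h and 74.0% ± 1.68 after 24 h of Dox. Its share was 48.9% ± 1.09 by 48 h and 20.9% ± 1.94 by 96 h, and 8.36% ± 0.996 was left at 168 h, against 6.71 and 5.75% in the XEN libraries. The levels crossed at 48 h, where the share of Pcsk6 in the 3 libraries was 47.8, 49.0 and 50%.

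**Figure D2:**
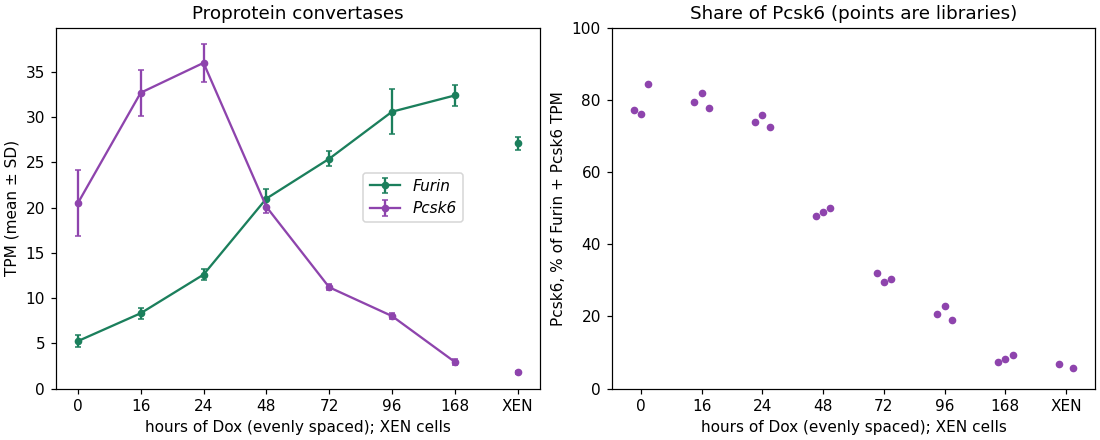
Left, mean level of Furin and Pcsk6 in TPM (vertical axis, bars are SD) against hours of Dox, evenly spaced, and in XEN cells. Right, Pcsk6 as a percentage of the summed Furin and Pcsk6 TPM, each point a library. The curves cross at 48 h, and the share of Pcsk6 passes from between 76.0 and 84.5% at 0 h to between 7.45 and 9.42% at 168 h.

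The windows upstream of the convertase genes are shown because the genes were called in opposite directions at 96 and 168 h. Pcsk6 had 1 entry, chr7:65861886-65862135 (plus strand), and Furin had 2 starts, of which the downstream one is printed, chr7:80402813-80403062 (minus strand), again 250 bases from RefSeq on GRCm38.p6 with the same letters in capitals.
Pcsk6: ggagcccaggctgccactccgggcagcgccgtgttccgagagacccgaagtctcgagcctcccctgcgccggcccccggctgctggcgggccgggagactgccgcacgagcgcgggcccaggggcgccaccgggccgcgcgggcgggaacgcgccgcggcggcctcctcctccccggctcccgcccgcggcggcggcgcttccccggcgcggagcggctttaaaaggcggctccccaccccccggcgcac
Furin: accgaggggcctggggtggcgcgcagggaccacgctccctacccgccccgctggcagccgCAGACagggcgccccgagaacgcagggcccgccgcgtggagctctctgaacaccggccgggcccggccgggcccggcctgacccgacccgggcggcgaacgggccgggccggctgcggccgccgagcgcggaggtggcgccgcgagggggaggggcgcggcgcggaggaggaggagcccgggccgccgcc
Both windows held 40 CG dinucleotides, a number reached by 1.31% of all windows, against a median of 6 over all windows, 7 for Tdgf1, 3 for Nodal and 6 for the other Furin start. Neither held a GATA-type match or AATNNACA. CAGAC occurred once in the printed Furin window, 190 bases before the start, and 2 times in the other. The deposited values sum over the starts of Furin, so use of either start was not measured.

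Against 0 h, the count of members called grew with time. At 16 h, 1 of the 9 was higher (Foxh1, against 1.97% of all genes tested called higher) and 0 were lower (0.804%). At an unadjusted p under 0.05 in limma, 3 were higher and 4 lower. The share of all genes at that limit was not counted for this or any other comparison. At 24 h, 2 were higher (Foxh1 and Furin, 3.24% of all genes) and 2 lower (Nodal and Tdgf1, 2.44%), and at 48 h 2 were higher (9.14%) and 3 lower (7.26%), with Gdf3 added. At 72 h, 1 was higher (Furin, 14.7%) and 6 lower (11.5%), and at 96 h 1 was higher (15.4%) and 7 lower (14.1%). At 168 h all 9 were called, Furin higher (22.6%) and the other 8 lower (16.5%). The median log2 difference of the 9 genes was 0.13 at 16 h and 0.38 after 24 h, then -0.75, -2.42, -3.11 and -3.56 at the later times, while the median over all genes tested lay between 0.00 and 0.09 at the 6 times. All these comparisons share the same 0 h libraries, so their counts are not independent of each other.

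**Figure D3:**
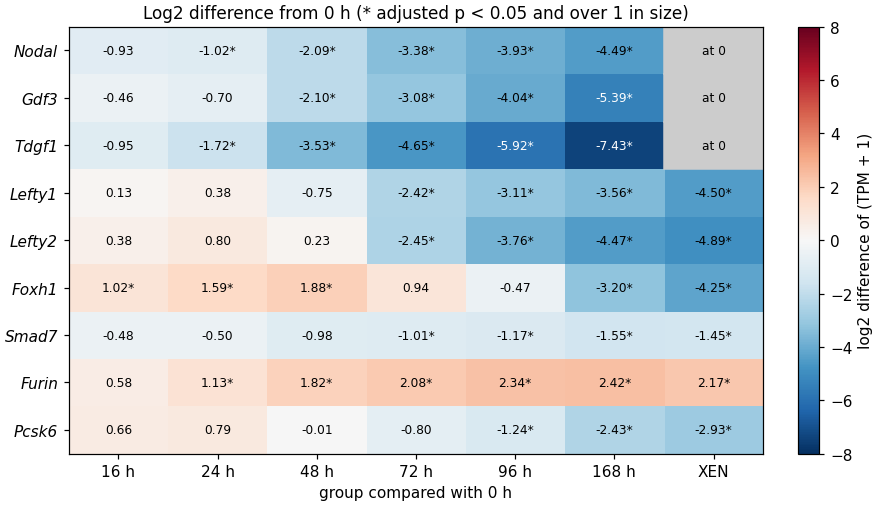
Log2 difference of TPM + 1 from 0 h for each gene (rows) at 6 times of Dox and in XEN cells (columns), in color from blue (lower) to red (higher) with the value printed. Asterisks mark an adjusted p under 0.05 with a difference over 1, and grey cells are genes listed at 0 in both XEN libraries. At 168 h, 8 genes are lower, from -1.55 for Smad7 to -7.43 for Tdgf1, and Furin is higher by 2.42.

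Between consecutive times, 16 of the 54 steps of the 9 genes were called, 1 upward and 15 downward. The upward step was Foxh1 from 0 to 16 h. None was called from 16 to 24 h, where 0.352% of all genes tested were called in either direction and where 4 of the 9 genes had an unadjusted p under 0.05, 2 upward and 2 downward. From 24 to 48 h Nodal, Gdf3, Tdgf1 and Lefty1 were lower (2.44% of all genes), from 48 to 72 h Nodal, Tdgf1, Lefty1 and Lefty2 (1.38%), from 72 to 96 h Tdgf1, Lefty2 and Foxh1 (1.04%), and from 96 to 168 h Gdf3, Tdgf1, Foxh1 and Pcsk6 (2.44%). Tdgf1 was thus lower in each of the 4 steps from 24 h on. Some neighbours in the order of levels could not be separated: Nodal at 16 and 24 h (adjusted p = 0.898), Gdf3 at 16 and 24 h (0.272), Foxh1 at 24 and 48 h (0.15), Furin at 96 and 168 h (0.471) and Smad7 at 48 and 72 h (0.905).

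In XEN cells compared with 0 h, Furin was higher (18.9% of all genes tested were) and the other 8 genes lower (18.7%). Compared with cells at 168 h of Dox, the XEN libraries were lower for 2 of the 9, Tdgf1 and Foxh1, against 9.17% of all genes called lower, and higher for 0 (4.73%). At an unadjusted p under 0.05, 7 were lower and 0 higher, with no share of all genes counted at that limit. After median-of-ratios rescaling 7.15% of all genes were called lower and 6.18% higher, and Foxh1, at -1.05, read -0.98, or -0.90 without the third 168 h library. For 8 of the 9 genes, all but Smad7, the XEN libraries lay below every 168 h library, as they did for 44.6% of all genes. The differences of Nodal, Gdf3 and Lefty1 were -0.73, -0.63 and -0.94 (adjusted p = 0.00435, 1.47e-04 and 0.0774), and those of Pcsk6 and Lefty2 -0.50 and -0.41 (0.00126 and 0.353), under the minimum of 1. These low levels depend on the pseudocount: with 0.1 TPM in place of 1, 6 of the 9 were called lower in XEN cells than at 168 h, against 15.0% of all genes. The median over the 9 genes was -0.63 and that over all genes -0.14, which median-of-ratios rescaling brought to -0.02.

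Other genes of the pathway were described from a list of 34, of which 29 were tested in the induction libraries. At 168 h, 11 of the 29 were higher and 3 lower, against 22.6 and 16.5% of all genes tested. After median-of-ratios rescaling 8 were higher (19.2% of all genes), with Smad3 at 0.84, Pcsk5 at 0.94 and Pcsk7 at 0.92. All 3 SMAD signal transducers were higher: Smad2 went from 28.8 ± 2.49 to 107 ± 2.28 TPM, Smad4, the common partner, from 26.6 ± 1.61 to 78.5 ± 12.8 TPM and Smad3 from 4.57 to 10.2 TPM, a difference of 1.00 just past the minimum that read 0.95 to 0.99 in 3 of the fits without 1 library. Among the receptors, Acvr2a rose from 3.72 to 11.6 TPM and the EGF-CFC gene Cfc1 from 0.237 to 2.86 TPM. Acvr1b, the type I receptor of Nodal, was highest at 72 h with 35.4 ± 11.7 TPM, against 13.4 ± 1.85 TPM at 0 h, with 23.7 TPM by 168 h and 4.95 TPM in XEN cells, while Acvr2b differed by -0.11 (adjusted p = 0.558).

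The other ligands and antagonists split. Inhbb, which encodes an activin subunit, was called lower already at 16 h, going from 22.3 ± 5.40 TPM at 0 h to 9.46 TPM at 16 h and 2.52 TPM at 168 h (the 16 h difference of -1.16 read -0.96 without the third 16 h library), and Gdf1, a Nodal co-ligand, fell from 3.79 to 0.488 TPM. Inha, which encodes the inhibin alpha chain, rose from 0.494 to 2.30 TPM. Fst, which encodes the activin-binding follistatin, rose from 7.14 ± 2.17 to 372 ± 58.6 TPM at 168 h and was at 510.0 TPM in XEN cells. Cer1 was not tested, with a highest group mean of 0.261 TPM. Thus at 168 h the Lefty antagonists were lower and follistatin RNA was higher than at 0 h.

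Of the 9 intracellular repressors, Tgif1, a SMAD corepressor, fell from 119.9 ± 1.80 to 25.9 TPM and the ubiquitin ligase gene Smurf1 rose from 10.3 to 50.9 TPM. The other 7 were not called at 168 h: Tgif2 went from 27.8 to 22.6 TPM, Ski from 28.5 to 31.5 TPM, Skil from 28.3 to 18.9 TPM, Drap1 from 138 to 145 TPM, Smurf2 from 15.7 to 30.0 TPM, Nedd4l from 13.1 to 9.15 TPM and Ppm1a from 94.3 to 113 TPM. The other convertase genes Pcsk5 and Pcsk7 rose, from 0.088 to 1.20 TPM and from 6.79 to 15.5 TPM, by 1.02 and 1.08, calls lost after rescaling and in 2 and 1 of the fits without 1 library. Among 7 genes known as targets in other tissues, 4 were tested: Foxa2, also a PrE gene, rose from 0.230 to 100.3 TPM, Eomes was called higher at 48, 72 and 96 h with a highest mean of 8.87 TPM, and Gsc and Fgf8 were not called. T, Mixl1 and Lhx1 did not reach a mean of 1 TPM in any group.

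**Figure D4:**
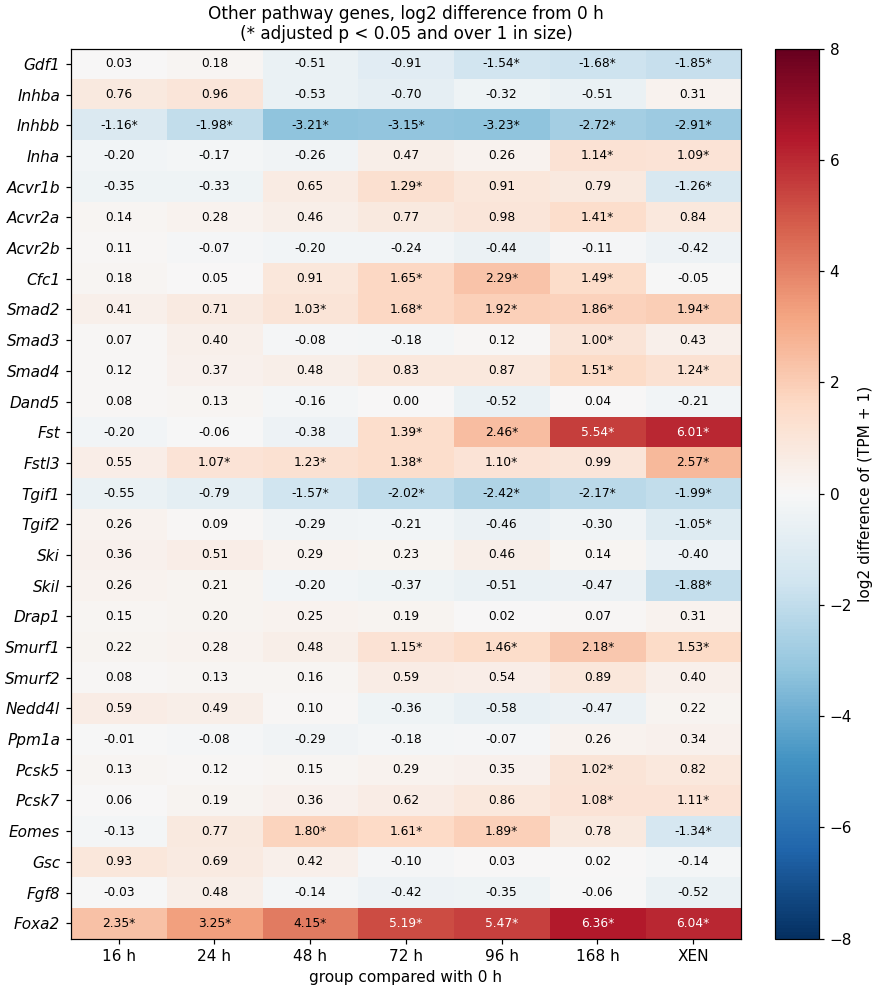
Log2 difference of TPM + 1 from 0 h for the 29 tested genes of the wider pathway (rows, by role) at 6 times of Dox and in XEN cells (columns), from blue (lower) to red (higher), with asterisks for an adjusted p under 0.05 and a difference over 1. Inhbb and Tgif1 are blue at every time, with -2.72 and -2.17 at 168 h, and Smad2, Fst, Smurf1 and Foxa2 are red at 168 h, with 1.86, 5.54, 2.18 and 6.36.

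The genes with the pattern most like each member were found by the root mean square difference of the log2 differences from 0 h over the 6 times and XEN cells, that is 7 values, among 15056 genes. The pattern of Tdgf1 was closest to that of Nanog (0.57), Ifitm1 (0.59) and Sox2 (0.73), of which Nanog and Sox2 encode pluripotency factors. Nodal was closest to Gpa33 (0.29), Tdrd12 (0.37) and Hap1 (0.38), and Gdf3 to Zfp980 (0.23), Zfp988 (0.29) and Cnpy1 (0.35). Lefty2 had Lefty1 as its nearest gene (0.61), and stood itself at place 30 among the genes nearest to Lefty1, led by Zbtb32 (0.30). Foxh1 had no close neighbour (Ly6g6e, 0.84), and Pcsk6 was at place 20 among its neighbours (1.21). Furin was closest to Kctd10 (0.15), Smad7 to Wdr5 (0.05) and Pcsk6 to Kif26a (0.22) and Rsph1 (0.22). For members with large falls the measure leaves out genes of low starting level, since low values cannot fall far on this scale. It did not require equal starting levels: Wdr5 had a mean of 133 TPM at 0 h, against 42.5 TPM for Smad7.

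The siRNA libraries address whether the levels at 48 h of Dox depend on Oct4. Pou5f1 itself was at 782 to 1194 TPM in the 6 siCTL libraries (median 895) and at 282 to 387 TPM in the 6 siOct4 libraries (median 314), with no overlap, a fall of 1.52 ± 0.14 (adjusted p = 5.21e-05). The ES cell marker sum was 6796 to 14107 TPM with siCTL and 5328 to 12327 TPM with siOct4, and the PrE marker sum 1777 to 4559 and 1081 to 2135 TPM. Libraries with the same number in both groups deviated together (mean r = 0.33, from 0.24 to 0.71 over the 6 numbers). With different numbers r ranged from -0.56 to 0.46 (mean -0.06), so the highest exceeded the lowest same-number value. Libraries 1 and 2, 3 and 4, and 5 and 6 had similar values. The 6 libraries of a group may thus hold fewer independent experiments. The methods for RNA-seq give 3 independent replicates per condition. The sum of the 5 feeder markers in the table ranged from 26.1 to 210.0 TPM with siCTL and from 27.8 to 213 TPM with siOct4. The sum of the 3 visceral endoderm markers in the table (Amn, Cubn and Hnf4a) was 170.1 to 725 TPM with siCTL and 28.4 to 141 TPM with siOct4, without overlap, and that of 4 trophectoderm markers (Cdx2, Tfap2c, Krt7 and Hand1) 7.26 to 35.0 and 17.7 to 122 TPM. The parietal endoderm sum was 4815 to 8111 and 3410.2 to 5893 TPM. The part of these shifts in the members' differences was not tested.

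Gdf3 was the member called lower with siOct4. In the order of the replicate numbers, it measured 9.86, 11.4, 18.6, 19.3, 19.5 and 18.4 TPM with siCTL, and 5.40, 5.18, 3.62, 4.31, 11.7 and 11.5 TPM with siOct4. It was lower with siOct4 in 6 of 6 numbered pairs, although the highest siOct4 libraries exceeded the lowest siCTL libraries. The mean fell to 6.95 ± 3.66 TPM from 16.2 ± 4.35 TPM (SD, n = 6), a log2 fall of 1.19 ± 0.29 (adjusted p = 0.0444), or 0.00816 when the replicate number was a block. The call is close to its limit: leaving out 1 library at a time kept it in 4 of 12 cases (adjusted p from 0.0251 to 0.108). With libraries averaged in consecutive couples the adjusted p was 0.423, or 0.051 with the couple as a block, and without libraries 3 and 4 of both groups the fall was 0.77 (adjusted p = 0.243). In the blocked fit the call held without each pair in turn (adjusted p from 0.00951 to 0.0332).

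Of the 9 genes, 1 was thus called lower, against 1.72% of all genes in the siRNA table, and 0 higher (0.942%), also at an unadjusted p under 0.05. With the replicate block, 2 were lower (6.15% of all genes) and 0 higher (2.43%), the second being Lefty2. The median over the 9 was -0.45 and over all genes of the table -0.12. None of the 9 had siCTL and siOct4 libraries that did not overlap, which 0.814% of all genes showed upward and 1.82% downward. The share of all genes that were lower in all 6 numbered pairs was not counted, for Gata6, for Gdf3 or for the members below.

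Lefty2 was at 5.81, 5.94, 0.237, 1.48, 11.6 and 11.5 TPM with siCTL and at 1.5, 2.20, 0.104, 0.191, 8.33 and 9.31 TPM with siOct4, lower in all 6 pairs. The difference of -0.75 had an adjusted p of 0.711 unblocked and 0.0437 with the block, and in the blocked fit without each pair in turn it was called in 1 of 6 cases. Lefty1 was likewise lower in 6 of 6 pairs, at 0.791 to 4.93 TPM against 0.181 to 4.81 TPM (difference -0.63, adjusted p = 0.596, or 0.0811 with the block). In libraries 5 and 6 it hardly moved, from 3.53 and 4.93 TPM to 3.46 and 4.81 TPM.

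Tdgf1 ranged from 4.13 to 49.0 TPM within siCTL alone, with 48.0 and 49.0 TPM in libraries 5 and 6 and at most 10.3 TPM in the others. It was at 23.2 and 22.8 TPM in siOct4 libraries 5 and 6 and the difference was -0.56 (adjusted p = 0.764, or 0.0915 with the block). Without libraries 3 and 4 and with the block it was -0.83 (adjusted p = 0.0301). Foxh1 was lower in 6 of 6 pairs, at 12.4 to 47.7 TPM with siCTL (median 35.0) and 10.8 to 36.1 TPM with siOct4 (median 25.4), a difference of -0.44 with an adjusted p of 0.649, or 0.108 with the block.

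For the remaining members no direction was shared by the pairs. Nodal was at 0.305 to 4.45 TPM with siCTL (median 2.98) and 0.37 to 6.76 TPM with siOct4 (median 3.51), higher in 4 of 6 pairs (difference 0.22 ± 0.47, adjusted p = 0.889). Smad7 was at 4.94 to 21.9 TPM and 5.90 to 22.9 TPM (adjusted p = 0.997) and Pcsk6 at 10.3 to 27.0 TPM and 10.8 to 34.4 TPM (difference 0.04 ± 0.30, adjusted p = 0.968), each higher in 4 of 6 pairs. Furin was at 4.93 to 18.8 TPM and 4.36 to 14.4 TPM, lower in 5 of 6 pairs (difference -0.45 ± 0.34, adjusted p = 0.628). A missing call does not show equal levels here. Of the 34 other pathway genes, 14 were in the siRNA table and 0 were called by limma, or 1 with the block (Acvr1b, lower). The Acvr1b call was lost in the blocked fit whichever pair was left out. At an unadjusted p under 0.05 there were 2, 1 in each direction, Fst higher and Acvr1b lower. The mean of Fst was 58.6 TPM with siOct4 and 13.7 TPM with siCTL, with overlapping libraries (limma, difference 1.52 ± 0.62, adjusted p = 0.273).

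**Figure D5:**
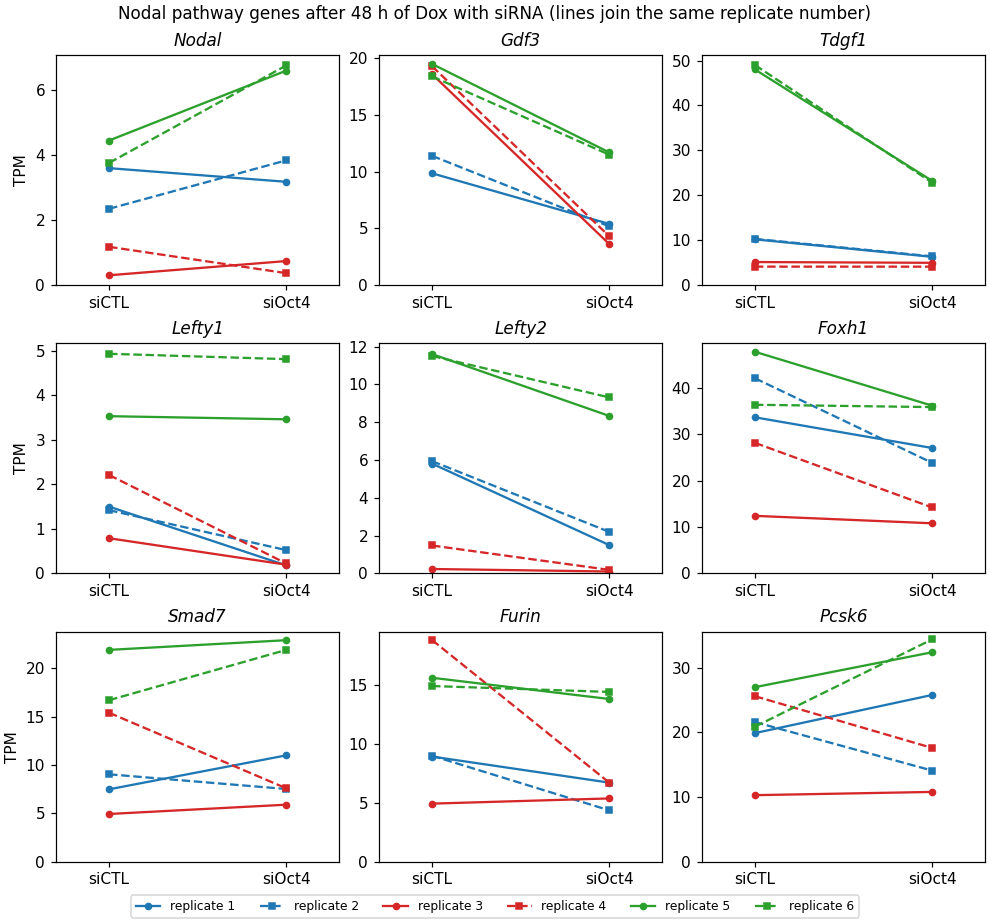
Level of each gene in TPM (vertical axis, from 0, a scale per panel) after 48 h of Dox with siCTL or siOct4 (horizontal axis), with lines joining libraries of the same replicate number and a color for each couple of consecutive numbers. All 6 lines descend for Gdf3, Lefty2, Lefty1, Foxh1 and Tdgf1, some only slightly, as for Tdgf1 in libraries 3 and 4, and the couples lie apart, for example near 49.0 TPM for Tdgf1 in siCTL libraries 5 and 6 against at most 10.3 TPM in the others.

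The siCTL libraries came from cells at 48 h of Dox that were also nucleofected with a non-targeting siRNA. They can be set beside the 48 h induction libraries only loosely, and the clone of the induction libraries is not named. Nodal was at 6.48 to 9.59 TPM in the 48 h induction libraries and at 0.305 to 4.45 TPM with siCTL, Lefty2 at 24.0 to 51.7 and 0.237 to 11.6 TPM, and Lefty1 at 11.5 to 16.8 and 0.791 to 4.93 TPM. Gdf3 was at 13.5 to 14.5 and 9.86 to 19.5 TPM and Pcsk6 at 19.3 to 20.7 and 10.3 to 27.0 TPM, so these ranges overlapped. Smad7 was at 18.5 to 26.8 and 4.94 to 21.9 TPM and Tdgf1 at 29.3 to 56.0 and 4.13 to 49.0 TPM, ranges that overlapped too. Foxh1 was at 65.6 to 78.3 and 12.4 to 47.7 TPM and Furin at 20.1 to 22.1 and 4.93 to 18.8 TPM, without overlap.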

How the data were processed

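PolyA RNA was sequenced in 35 libraries, grouped by their titles, after feeders had been removed by adsorption. The authors mapped stranded paired reads of 150 bases with STAR (mm10), estimated gene levels with RSEM, omitted outliers by a principal component criterion and deposited TPM, the part of each library's transcripts that a gene takes, scaled to a fixed total. Versions of STAR, RSEM and the annotation were not given in the sources used here. Columns of the induction table sum to 1000000 TPM within rounding and those of the siRNA table, a selection of genes, to between 274527 and 355895 TPM. TPM keeps no read numbers, so depth is unknown and error is given as the spread between libraries. The siRNA table also holds the authors' mean columns and text classes from their own comparisons, which were not used. Each per-sample column could be matched to a title.

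The highest of several rows was kept for 60 repeated symbols. Groups were compared by limma 3.58.1 under R 4.3.3 (trend and robust options) on log2(TPM + 1) over all tested genes at once, with Benjamini-Hochberg adjustment. A change on this scale understates that of low genes. The induction fit used all 23 libraries and the siRNA fit 12. A call required an adjusted p-value under 0.05 and a log2 difference over 1, or over 0.5 in the siRNA table. The scripts were tested on simulated data. Tables and figures were made with Python 3.11.15, pandas 2.3.3, scipy 1.17.1 and matplotlib 3.10.9, gene positions come from GENCODE M21 and promoter sequences from RefSeq. The test across all genes was laid out for TPM, and no count test was run.

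Replicate numbers were checked for pairing. In the siRNA table departures from the group mean of libraries with the same number correlated in every one of 6 pairs (mean r = 0.33, lowest 0.24). Those of libraries with different numbers reached 0.46 (mean r = -0.06), so pairing by number is not settled. The numbers were taken as pairs, and a fit with the replicate block is given where it changes a call. That fit counts the libraries of a couple as independent pairs. In the induction table libraries with the same number did not correlate in this way (mean r = 0.03, lowest -0.19). The methods give 3 independent replicates per condition other than XEN cells, while a legend on Oct4 levels after siRNA gives 6 independent experiments. One gene of the pathway list is not reported here and is left out of its counts. All members are named, together with the listed pathway genes called at 168 h or with a group mean over 20 TPM. The 3 genes most like Nodal, Gdf3 and Tdgf1 are named too, and fewer for the other members. The members, the pathway and marker lists and the tests were chosen with earlier results of these data known. Alternatives were the replicate block, median-of-ratios rescaling, other filters, a pseudocount of 0.1, no fold minimum, an adjusted p under 0.01, only the compared groups, and each library left out. Averaging consecutive siRNA libraries, removing a trend with gene length, leaving out libraries 3 and 4, and leaving pairs out of the blocked fit were alternatives chosen after seeing the data.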

Additional observations from a re-analysis of the deposited data

Results flagged for a closer look

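In groups of 6 siRNA libraries, 2 values stood apart from the rest of their group by Dixon's 95% critical value, among 22 sets screened, where chance gives about 1.1. Pcsk6 in siCTL replicate 3 was at 3.5 on the log2(TPM + 1) scale, with the other 5 libraries between 4.39 and 4.81 and a gap of 0.68 of the range. Gata6 in siCTL replicate 4 was at 7.64, with the others between 6.55 and 6.82 and a gap of 0.75 of the range. The same libraries had the steepest trends of the log2 level with gene length among all 12, -0.21 in siCTL replicate 3 and 0.19 in siCTL replicate 4 per doubling of exon length. The part of that trend in the flagged values was not tested.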

How the results depend on the processing

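Every member's call at 168 h and in XEN cells against 0 h held in each fit that left out 1 library. Leaving out 1 library gave 0 to 2 members called at 16 h, 3 to 4 at 24 h, 5 to 6 at 48 h, 6 to 8 at 72 h, 1 to 2 in XEN cells against 168 h and 0 to 1 with siOct4, 1 to 3 of the other pathway genes at 16 h and 0 to 1 with siOct4, and 14 to 17 steps. Without a fold minimum, 6 members were called at 16 h, 7 at 24 h and 6 in XEN cells against 168 h, with 35 steps, and 7, 13, 16, 19 and 23 other pathway genes at 16, 24, 48, 72 and 96 h, 23 in XEN cells against 0 h and 14 against 168 h. The share of all genes called without a fold minimum is not given here, so these counts describe no trait of the listed genes. Median-of-ratios rescaling gave 0 members at 16 h, 1 in XEN cells against 168 h and 1 other pathway gene with siOct4. A pseudocount of 0.1 gave 6 members in XEN cells against 168 h and 5 other pathway genes at 24 h.

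With siOct4, 2 members were called with the replicate block, where 537 of all genes were called in place of 167, and 2 when the block was used without replicate 6, without libraries 3 and 4, or after removal of the length trend. The member called beside Gdf3 was Lefty2, except without libraries 3 and 4, where it was Tdgf1. An adjusted p under 0.01, averaged couples with or without the couple block, and leaving out libraries 3 and 4 unblocked each gave 0. Acvr1b was the 1 other pathway gene called with the block, after length correction with or without the block, and after rescaling. It was not called in the blocked fit whichever pair was left out, nor without libraries 3 and 4, nor with averaged couples. In the induction table the samples share only a number, and the block changed no member call there.

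The sign turned only for differences far from a call. The ranges with 1 library left out were -0.58 to 0.52 for Lefty1 at 16 h, -0.33 to 0.77 for Lefty1 at 24 h, -0.04 to 0.50 for Lefty2 at 48 h and -0.13 to 0.12 for Pcsk6 at 48 h, and with siOct4 -0.04 to 0.51 for Nodal, -0.21 to 0.18 for Smad7 and -0.13 to 0.22 for Pcsk6. Smad7 with siOct4 was at 0.13 after rescaling, at 0.12 after length correction with or without the block, at 0.17 without libraries 3 and 4 with or without the block, and in the blocked fit at 0.04 without replicate 2 and 0.18 without replicate 4, where Pcsk6 was at -0.02 without replicate 1 and -0.08 without replicate 6. The cause was not tested. With unknown depth, TPM values under 1 carry an unknown counting error.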

Other observations

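The antagonist level per ligand level also differed between the siRNA groups. The sum of Lefty1 and Lefty2 per TPM of Nodal was 2.03, 3.13, 3.37, 3.13, 3.40 and 4.37 in siCTL libraries and between 0.406 and 2.09 in siOct4 libraries (mean 1.11), lower in 6 of 6 pairs by a mean log2 ratio of -1.77 ± 0.79 (SD). The quantity was chosen after its values had been seen and was not tested, and Nodal was under 1 TPM in siCTL library 3 and in siOct4 libraries 3 and 4, so its ratio there rests on low values.

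Pcsk6 as a share of the summed convertase TPM was 57.7 to 70.6% with siCTL and 66.9 to 79.3% with siOct4, ranges that overlapped.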
